A study of Mus musculus with 12 samples.

Results

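This report describes 10 mouse genes of myeloid inhibitory and paired surface receptors. They include Cd200, its receptor gene Cd200r1, the related gene Cd200r4, and the sialic acid-binding lectins Siglec1, Siglece and Cd33. The others are the leukocyte immunoglobulin-like receptor Lilrb4a, Sirpa and its ligand Cd47, and the SLAM-family receptor Slamf7. All 10 were chosen by name from the CD200 receptor, Siglec, Lilr, Sirp and Slam families. Of these, 9 had a row of their own among the 46078 rows of the count table. All 9 passed the filter on low counts and are among the 16527 genes tested. Lilrb4a had no row of its own, and a row of the locus it shares with Lilr4b is described in its place without being counted as a member. The study sequenced spinal cord RNA of C57BL6/cJ host mice, as 3 libraries in each of 4 groups, 12 in all. These were spinal cord injury (SCI) with a transplant of syngeneic mesenchymal stem cells (MSCs, stromal cells from a donor matched to the host), SCI with a transplant of allogeneic MSCs (unmatched donor), SCI with no transplant named in the labels, and non-injured cord. The labels name no vehicle or sham transplant, and no source used here gives the time after injury, the donor strain, or the age and sex of the mice. Whether samples within a group come from separate animals is not labelled, so p-values measure only the spread between these samples, which may be technical.

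Inhibitory receptors on microglia, macrophages and other myeloid cells carry cytoplasmic tyrosine motifs that recruit phosphatases and hold back activation, and paired receptors are close relatives of such receptors that signal through activating adaptors instead. CD200 on neurons and endothelium engages CD200R1 on myeloid cells, and CD47, present on nearly all cells, engages SIRPα and restrains phagocytosis. Siglecs read sialic acid on cell surfaces, so most host cells can engage them. In the spinal cord these pairs are studied as checks on microglia and on macrophages that enter after injury.

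The libraries held 8705942 to 26151928 counts, with allogeneic replicate 2 the shallowest. Within groups, log2 CPM of the libraries correlated across genes, which are not replicates, with r of at least 0.971. Syngeneic replicate 3 and allogeneic replicate 1 lay nearer the SCI libraries than their own group, and results that rest on syngeneic replicate 3 are given with and without it. The tissue label was checked against marker lists: all 8 neuron markers and all 6 oligodendrocyte markers were present in every group, with summed levels of 6798 CPM or more and 22603 CPM or more. CPM values are counts scaled to library size, with library sizes adjusted by TMM, the trimmed mean of M values. A gene is called when its Benjamini-Hochberg adjusted p from edgeR's quasi-likelihood test, adjusted over all genes tested, lies below 0.05. The 6 comparisons share libraries with each other, 3 of them the non-injured libraries, so they are not independent.

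Positions are from GENCODE M21 on GRCm38. The CD200 ligand and receptor genes lie on chromosome 16: Cd200 (ENSMUSG00000022661, chr16:45382135-45409053, minus strand), Cd200r1 (ENSMUSG00000022667, chr16:44765736-44794978, plus strand) and Cd200r4 (ENSMUSG00000062082, chr16:44811733-44839150, plus strand). Cd47 (ENSMUSG00000055447, chr16:49800533-49915010, plus strand) is on the same chromosome. Sirpa (ENSMUSG00000037902, chr2:129592835-129632228, plus strand) and Siglec1 (ENSMUSG00000027322, chr2:131069220-131086765, minus strand) lie on chromosome 2. Siglece (ENSMUSG00000030474, chr7:43651070-43660161, minus strand) and Cd33 (ENSMUSG00000004609, chr7:43524216-43544428, minus strand) are neighbours in the Siglec cluster of chromosome 7, and Slamf7 (ENSMUSG00000038179, chr1:171632403-171653035, minus strand) is on chromosome 1. Cd200r4 shares 4.94% of its 50-base transcript windows with other genes, of which 2.99% occur in Cd200r2 and 1.96% in Cd200r1, so a small part of its reads could be split between paralogs. For the other members the shared part was at most 1.33%. Slamf7 overlaps the antisense gene Gm37787 over 423 bases, 9.24% of its exon length, and no source used here gives the strand setting of the counting.

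The row of the Lilr locus (ENSMUSG00000062593, chr10:51480612-51496613, plus strand) spans both Lilr4b and Lilrb4a in that annotation. Its exons overlap Lilrb4a exons over 92.8% and Lilr4b exons over 6.13% of their length. Of its 50-base transcript windows, 95.2% also occur in Lilrb4a and 38.4% in Lilr4b. Its values are therefore those of the locus, and the share of Lilrb4a, which encodes an inhibitory receptor of myeloid and mast cells, in them is uncertain.

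RefSeq start sites on GRCm38.p6 were held for 6 of the members, and the 250 bases upstream of 5 of them are shown here because they belong to genes with unlike responses to injury, described below: Cd200r4, Slamf7 and Cd33, which rose, Siglece, which did not pass the test, and Cd200, whose groups overlapped. Each is written 5′ to 3′ on the gene's strand and ends at the base before the start site. Capitals mark GAGGAA or its reverse complement TTCCTC, the core letters bound by PU.1, the myeloid transcription factor encoded by Spi1.
Cd200r4, chr16:44820478-44820727, plus strand: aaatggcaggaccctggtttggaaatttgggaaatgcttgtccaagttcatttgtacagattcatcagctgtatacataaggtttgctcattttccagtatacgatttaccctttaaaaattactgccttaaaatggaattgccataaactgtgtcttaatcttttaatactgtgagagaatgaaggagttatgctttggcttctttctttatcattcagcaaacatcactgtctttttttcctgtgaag
Slamf7, chr1:171649000-171649249, minus strand: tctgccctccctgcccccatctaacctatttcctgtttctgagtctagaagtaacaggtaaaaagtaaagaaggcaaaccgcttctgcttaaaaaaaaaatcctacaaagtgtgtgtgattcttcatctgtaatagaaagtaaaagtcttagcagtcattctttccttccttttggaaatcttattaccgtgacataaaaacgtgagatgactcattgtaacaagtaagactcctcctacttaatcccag
Cd33, chr7:43533172-43533421, minus strand: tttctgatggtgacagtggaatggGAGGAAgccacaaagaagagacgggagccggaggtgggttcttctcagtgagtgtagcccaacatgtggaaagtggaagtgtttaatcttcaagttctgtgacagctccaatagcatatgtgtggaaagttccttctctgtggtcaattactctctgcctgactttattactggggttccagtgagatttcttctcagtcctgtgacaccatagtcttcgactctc
Siglece, chr7:43660162-43660411, minus strand: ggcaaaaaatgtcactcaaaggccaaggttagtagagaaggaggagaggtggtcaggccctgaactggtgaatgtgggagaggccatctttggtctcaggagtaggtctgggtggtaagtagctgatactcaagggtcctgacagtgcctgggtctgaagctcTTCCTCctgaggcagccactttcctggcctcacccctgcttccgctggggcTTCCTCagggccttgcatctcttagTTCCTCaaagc
Cd200, chr16:45409054-45409303, minus strand: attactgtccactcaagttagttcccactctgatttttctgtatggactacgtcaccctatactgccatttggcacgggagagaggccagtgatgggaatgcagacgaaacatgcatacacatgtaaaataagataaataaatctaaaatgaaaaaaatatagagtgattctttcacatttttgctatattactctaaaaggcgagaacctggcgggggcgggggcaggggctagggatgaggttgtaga
The 6 letters occurred 3 times upstream of Siglece, 1 time upstream of Cd33, and not in the windows of Cd200r4, Slamf7 and Cd200. Searched on both strands, they were present in 23.3% of all 32851 RefSeq windows of that length. These are matches of letters only. By the positions given above, the windows of Cd200r4, Slamf7 and Cd33 lie inside the GENCODE gene spans. Those of Siglece and Cd200 adjoin the spans, so the windows are not like regions of their genes.

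Injury alone was compared with non-injured cord to ask how the receptors stand in injured tissue. Of the 9 members tested, 6 rose in SCI and none fell, against 16.6% of all genes tested that were called higher and 9.26% called lower. The members that rose were Cd200r1, Cd200r4, Siglec1, Cd33, Sirpa and Slamf7, while Siglece and the ligands Cd200 and Cd47 did not pass the test. The median log2 fold change was 2.83 over the 9 members and 0.01 over all genes tested. In these bulk samples, more cells of a type and more RNA per cell cannot be told apart. All 8 pan-myeloid markers fixed as a list (Csf1r, Aif1, Spi1, Itgam, Itgb2, Laptm5, Ptprc and Cd53) also rose, with log2 fold changes of 2.28 to 3.87, and their summed level was 918 to 1108 CPM in SCI libraries against 127 to 177 CPM in non-injured libraries. Their part in the members' rises was not tested.

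**Figure D1:**
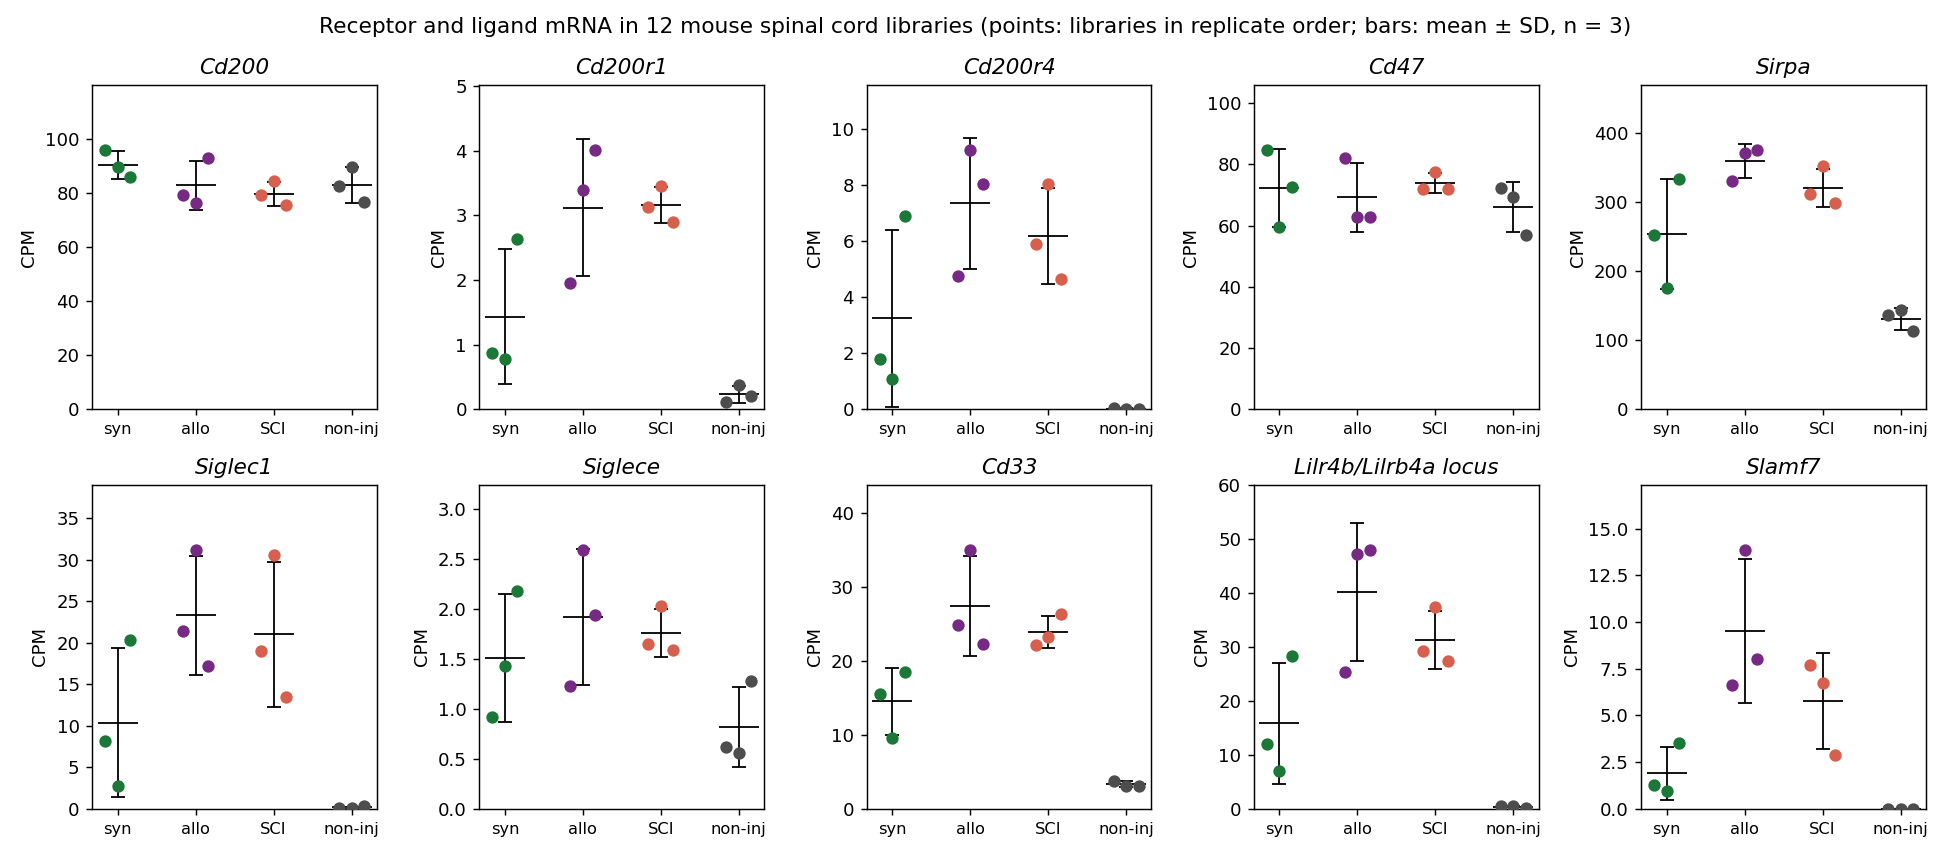
Each panel plots the TMM-scaled CPM of a gene in 12 libraries, with points for single libraries in replicate order and bars for the mean ± SD of 3 libraries in the syngeneic (syn), allogeneic (allo), SCI and non-injured (non-inj) groups. Receptors such as Cd200r4 and Slamf7 are at or near 0 in non-injured cord, whereas Cd200 and Cd47 lie at similar levels in all groups.

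The inhibitory receptor gene Cd200r1 had 3.12, 3.46 and 2.89 CPM in SCI libraries, against 0.116, 0.375 and 0.205 CPM in non-injured libraries. The lowest SCI library stood far above the highest non-injured one. The log2 fold change was 3.82 (SE 0.56, adjusted p = 0.0008, edgeR). Its paired relative Cd200r4, whose protein signals through an activating adaptor in mouse, had 5.88, 8.02 and 4.65 CPM in SCI libraries, against 0.0387, 0 and 0 CPM in non-injured libraries. That is 324 counts in SCI and 1 count in non-injured cord, a ratio of 381 with a 95% counting interval of 67.9 to 15103, which covers counting error only. The ratio of the summed counts of Cd200r1 was 14.9 (8.50 to 28.6), so both receptors of the pair were higher in SCI and their counting intervals do not overlap.

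Cd200, the ligand gene of Cd200r1, had 79.2, 84.5 and 75.6 CPM in SCI libraries, against 82.8, 89.6 and 76.6 CPM in non-injured libraries. The 2 groups overlapped, with a log2 fold change of -0.06 (SE 0.10, adjusted p = 0.734, edgeR) and a 95% interval of -0.28 to 0.17. Cd47 had 72.1, 77.6 and 71.8 CPM in SCI libraries, against 72.4, 69.2 and 56.8 CPM in non-injured libraries. These groups overlapped too, with a log2 fold change of 0.16 (SE 0.15, adjusted p = 0.484) and a 95% interval of -0.17 to 0.49.

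Sirpa, which encodes the CD47 receptor of myeloid cells and is also made by neurons, had 312, 352 and 298 CPM in SCI libraries, against 136, 144 and 113 CPM in non-injured libraries. Every SCI library was above every non-injured one. The log2 fold change of 1.29 (SE 0.20, adjusted p = 0.0010, edgeR) was the smallest among the 6 members that rose, and smaller than that of each of the 8 pan-myeloid markers.

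Siglec1, the gene of sialoadhesin, a macrophage lectin without an inhibitory motif of its own, had 19.1, 30.6 and 13.5 CPM in SCI libraries, against 0.155, 0.125 and 0.308 CPM in non-injured libraries. The groups were far apart, and the SCI libraries differed among themselves, with an SD of 8.75 CPM about a mean of 21.1 CPM. The log2 fold change was 6.70 (SE 0.83, adjusted p = 0.0003, edgeR). Cd33 had 22.1, 23.3 and 26.4 CPM in SCI libraries, against 3.83, 3.06 and 3.13 CPM in non-injured libraries, with no overlap and a log2 fold change of 2.83 (SE 0.25, adjusted p = 0.0001). Its human counterpart is an inhibitory Siglec of microglia.

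Siglece, an inhibitory Siglec of mouse myeloid cells, had 1.65, 2.03 and 1.59 CPM in SCI libraries, against 0.618, 0.562 and 1.28 CPM in non-injured libraries. The groups did not overlap, yet the adjusted p was 0.0699 for a log2 fold change of 1.09 (SE 0.41, 95% interval 0.20 to 1.99, edgeR). Its summed counts were 92 in SCI and 50 in non-injured cord. Only 3 of 12 alternative settings passed the threshold. Among them, the log2 fold change was 1.54 (adjusted p = 0.0275) without non-injured replicate 3. With library totals alone as scaling it was 1.18 (adjusted p = 0.0480). Over all 12 it ranged from 0.90 to 1.54, with adjusted p of 0.0275 to 0.204. Within the Siglecs, the order of the fold changes was therefore Siglec1, Cd33 and Siglece.

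Slamf7, a receptor of macrophages, natural killer (NK) cells and plasma cells that binds itself on neighbouring cells, had 126, 123 and 51 counts in SCI libraries, against 0 counts in every non-injured library. Against a floor of 3 counts over the non-injured group this is 118-fold higher, and the lower limit of the 95% counting interval is 95.1. In CPM the SCI libraries stood at 7.72, 6.75 and 2.89, so SCI replicate 3 was well below the other SCI libraries. T and NK cell markers were higher in the same comparison, with 6 of 7 tested called and a median log2 fold change of 3.87. Cd3e, Cd3d, Cd3g, Cd8a, Cd4 and Trac on that list are T cell genes, and the NK cell gene Ncr1 was not tested. The summed level of that list was 6.29 to 7.97 CPM in SCI libraries, with no marker at 0, against 2.44 to 2.71 CPM in non-injured libraries, where Cd3d, Cd8a and Ncr1 were at 0. Monocyte and macrophage markers were higher as well, with all 8 called and a median log2 fold change of 2.95. Of 4 tested B and plasma cell markers none was called, with a median log2 fold change of 0.69. The part of these lists in the Slamf7 rise was not tested. The row of the Lilr4b/Lilrb4a locus had 29.2, 37.3 and 27.3 CPM in SCI libraries, against 0.464, 0.4997 and 0.256 CPM in non-injured libraries, without overlap and with a log2 fold change of 6.24 (SE 0.59, adjusted p = 0.0001, edgeR).

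Levels of different members were compared per kilobase of exon. In SCI the order was Sirpa (65.3 ± 5.69 CPM per kilobase), Cd200 (24.01 ± 1.35), the Lilr4b/Lilrb4a locus (15.7 ± 2.67), Cd47 (11.8 ± 0.524), Cd33 (3.08 ± 0.286), Cd200r4 (3.02 ± 0.833), Siglec1 (2.95 ± 1.22), Slamf7 (1.26 ± 0.558), Siglece (0.951 ± 0.129) and Cd200r1 (0.943 ± 0.0852; SD, n = 3 each). Cd33, Cd200r4 and Siglec1 did not differ beyond their spread, nor did Slamf7, Siglece and Cd200r1. In non-injured cord the first places were Sirpa (26.7 ± 3.26 CPM per kilobase), Cd200 (25.0 ± 1.97) and Cd47 (10.5 ± 1.31), with Sirpa and Cd200 within their spread. All other members were then below 0.5 CPM per kilobase, led by Siglece (0.444 ± 0.216) and Cd33 (0.430 ± 0.0546). Siglece and Cd33 did not differ beyond their spread in non-injured cord, whereas in SCI the lowest Cd33 library (2.85 CPM per kilobase) was above the highest Siglece library (1.10). Cd200r4 exceeded Cd200r1 per kilobase in SCI, where the lowest Cd200r4 library had 2.27 and the highest Cd200r1 library 1.03 CPM per kilobase.

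**Figure D2:**
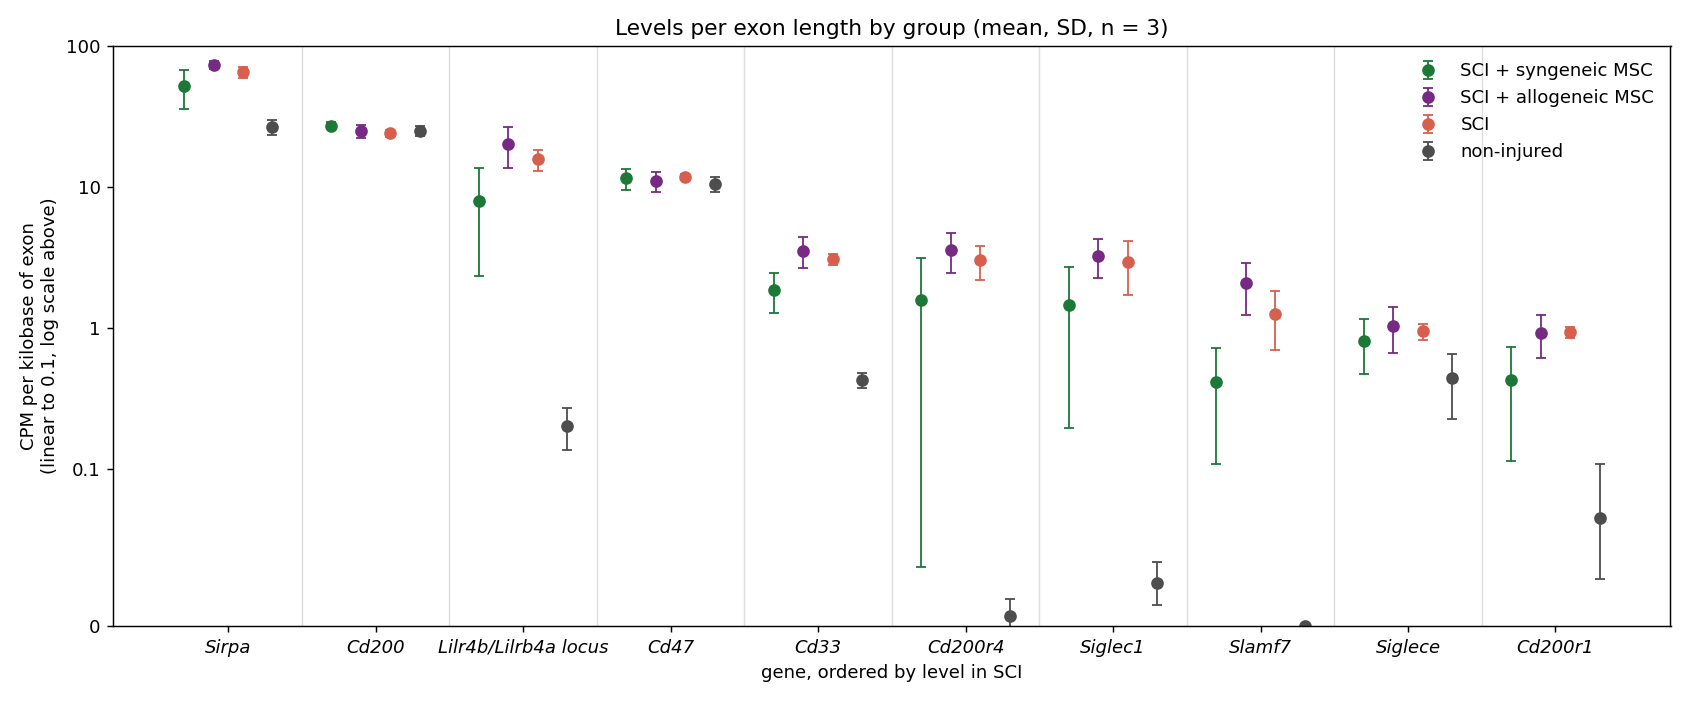
Points are group means of CPM per kilobase of exon with SD bars over 3 libraries, ordered by the level in SCI, on an axis that is linear to 0.1 and logarithmic above. Sirpa, Cd200 and Cd47 are high in all 4 groups, and most of the other genes are higher in the injured groups than in non-injured cord.

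The members were also set against the pan-myeloid markers within each library, as log2 CPM of the member minus the mean log2 CPM of the 8 markers. This is a description without a test, since 3 against 3 libraries cannot go below an exact permutation p of 0.1. Sirpa stood 1.94 to 1.98 above the marker mean in SCI libraries and 3.13 to 4.13 above it in non-injured libraries, so relative to the markers it was lower in SCI by 1.72 on this scale. Siglece stood at -5.49 to -5.42 in SCI libraries and -3.77 to -3.22 in non-injured libraries, also lower in SCI without overlap. Cd33 (-1.97 to -1.51 in SCI, -2.00 to -1.33 in non-injured cord) and Cd200r1 (-4.68 to -4.62 in SCI, -5.46 to -4.09 in non-injured cord) overlapped between the groups. The differences of their means were -0.21 and 0.32. Cd200r1 had only 3, 6 and 4 counts in non-injured libraries, so its overlap does not show that it moved as much as the markers did. Siglec1, Cd200r4, Slamf7 and the Lilr4b/Lilrb4a locus stood higher in SCI without overlap, by 3.08, 2.67, 2.64 and 2.94. The prior count of 2 used for log2 CPM draws values near 0 together, so these last differences and that of Cd200r1 are understated.

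**Figure D3:**
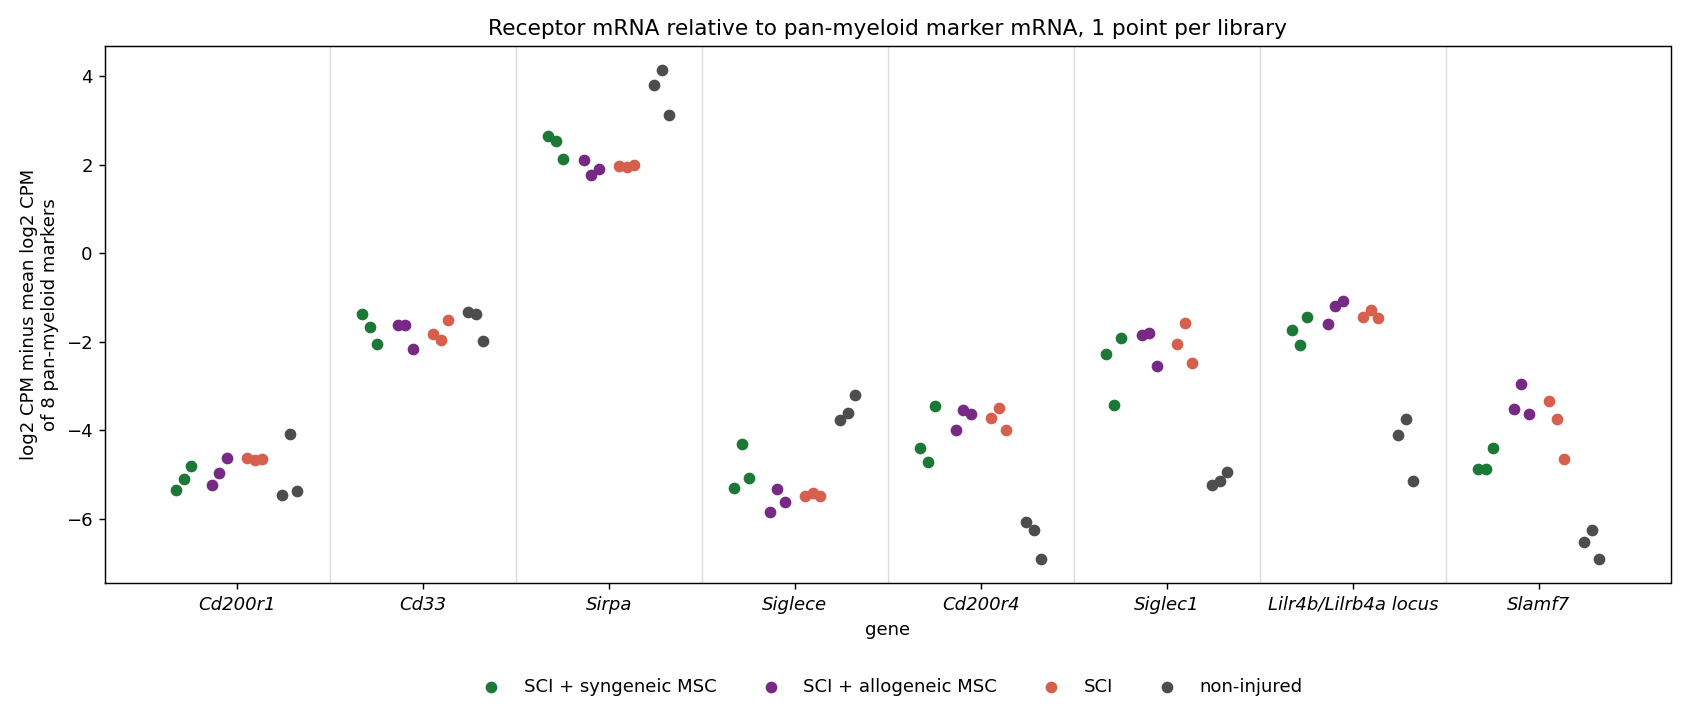
Each point is the log2 CPM of a gene minus the mean log2 CPM of 8 pan-myeloid markers in the same library, by group. Sirpa and Siglece are lower in the injured groups than in non-injured cord, Cd200r1 and Cd33 overlap, and Cd200r4, Siglec1, the Lilr4b/Lilrb4a locus and Slamf7 are higher.

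For the ligands the comparison was with 8 neuron markers, which had a median log2 fold change of -0.53 in SCI, with 4 of the 8 called lower. Relative to their mean log2 CPM, Cd200 stood at -2.96 to -2.73 in SCI libraries and -3.37 to -3.03 in non-injured libraries. Cd47 stood at -3.10 to -2.85 in SCI libraries and -3.62 to -3.46 in non-injured libraries. Both were thus higher in SCI relative to these markers without overlap, by 0.37 and 0.59, while neither differed in total level by the test.

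The syngeneic comparison with SCI asked whether matched cells altered the injured state. No member was called in either direction, against 0.0363% of all genes tested (6 genes). At an unadjusted p below 0.05 there were 2232 genes, and no member was called by limma-voom or DESeq2 either. The fitted change was negative for 8 of 9 members, with a median log2 fold change of -0.72 against 0.00 over all genes, and all 8 pan-myeloid markers were also negative without a call (-0.93 to -0.55). The summed pan-myeloid level was 376, 519 and 923 CPM in syngeneic libraries in ascending order, against 918 to 1108 CPM in SCI libraries. Its part in the members' values was not tested. These values rest on 1 library: without syngeneic replicate 3, 5 members were called lower than in SCI, among 866 genes called in all. That library was singled out because it lay nearer SCI than its own group, so leaving it out is bound to widen the difference. Values without it, here and below, are therefore no support for a difference. Without SCI replicate 1 no member was called. Leaving out single libraries gave edgeR adjusted p of 0.0216 to 0.756 for Cd200r1 and 0.0348 to 0.756 for Slamf7.

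**Figure D4:**
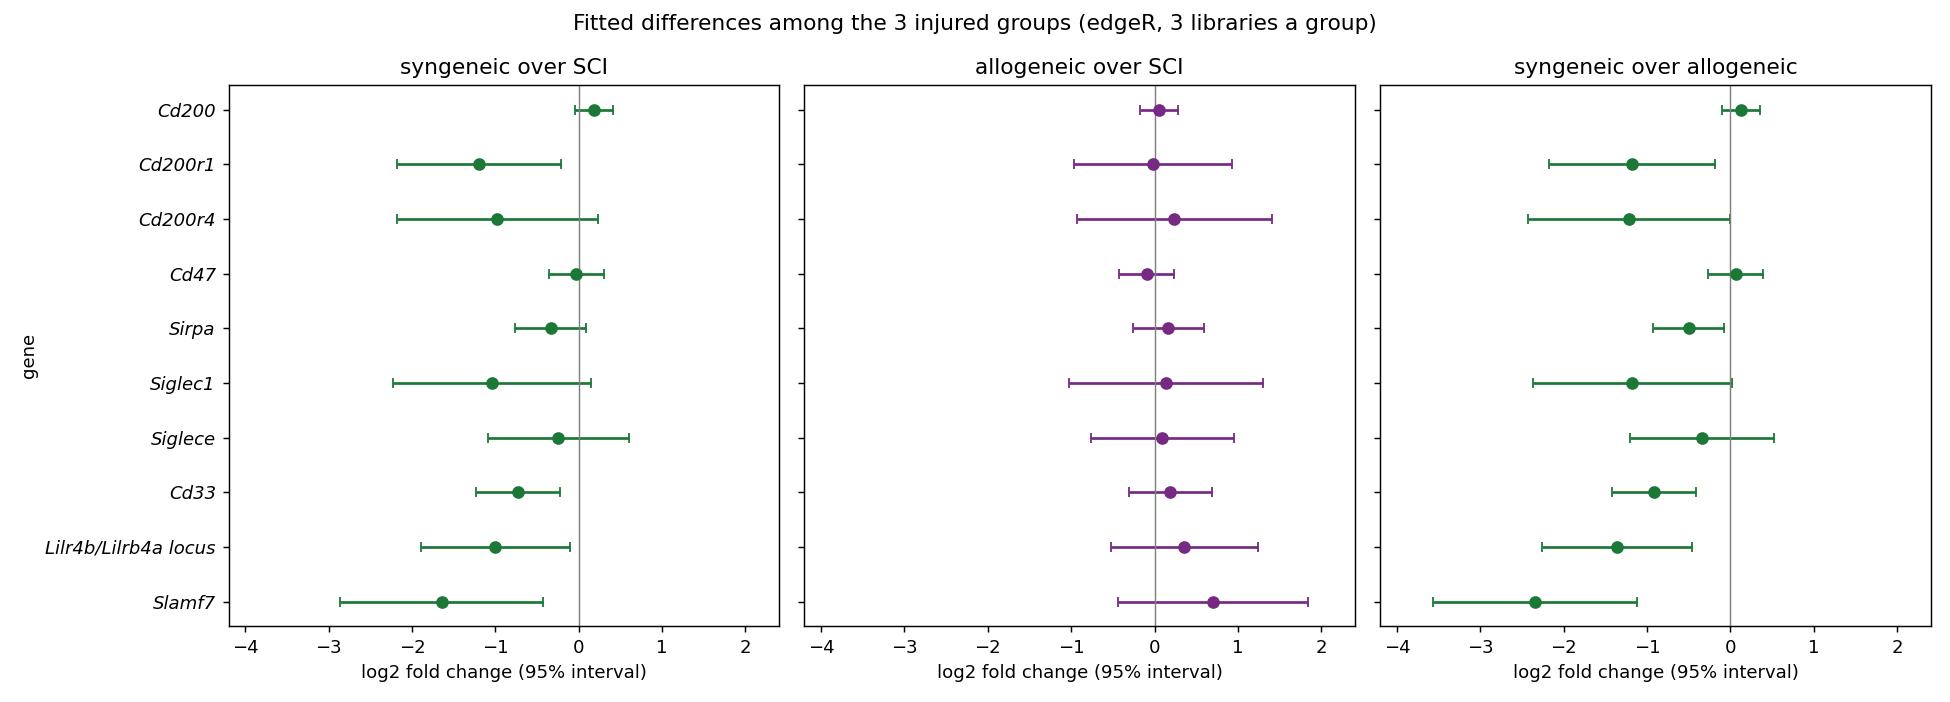
Points are edgeR log2 fold changes with 95% intervals for the Lilr4b/Lilrb4a locus and the 9 members, in syngeneic over SCI, allogeneic over SCI and syngeneic over allogeneic. The largest negative fitted value is that of Slamf7 in syngeneic over allogeneic, at -2.34, and no gene passed the adjusted threshold in any of the 3 comparisons.

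Cd200r1 had 0.874, 0.776 and 2.63 CPM in syngeneic libraries, against 3.12, 3.46 and 2.89 CPM in SCI libraries. All syngeneic libraries lay below all SCI libraries, replicate 3 only just. Such separation was seen in 11.5% of all genes tested in that direction. The log2 fold change was -1.20 (SE 0.45, 95% interval -2.18 to -0.21, adjusted p = 0.322, edgeR), and -1.96 (adjusted p = 0.0216) without syngeneic replicate 3. Cd200r4 had 1.79, 1.06 and 6.87 CPM in syngeneic libraries, against 5.88, 8.02 and 4.65 CPM in SCI libraries. Syngeneic replicate 3 lay within the SCI range and the other syngeneic libraries far below it. The log2 fold change was -0.98 (SE 0.55, adjusted p = 0.441) over all libraries and -2.15 (adjusted p = 0.0193) without that library.

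The ligand Cd200 had 96.0, 89.5 and 85.8 CPM in syngeneic libraries, against 79.2, 84.5 and 75.6 CPM in SCI libraries. It was the only member whose syngeneic libraries all lay above the SCI libraries, as did 12.2% of all genes. The difference was small, with a log2 fold change of 0.18 (SE 0.10, 95% interval -0.05 to 0.41, adjusted p = 0.448, edgeR). Neuron markers, all 8 of them positive without a call, had a median log2 fold change of 0.36 in the same comparison, and relative to their mean Cd200 overlapped between the groups. Cd47 had 84.8, 59.5 and 72.6 CPM in syngeneic libraries and 71.8 to 77.6 CPM in SCI libraries, with a log2 fold change of -0.03 (SE 0.15, 95% interval -0.36 to 0.30). Relative to the neuron markers, Cd47 was lower in syngeneic libraries (-3.60 to -3.15) than in SCI libraries (-3.10 to -2.85).

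Cd33 had 15.5, 9.56 and 18.6 CPM in syngeneic libraries, against 22.1, 23.3 and 26.4 CPM in SCI libraries. Every syngeneic library was below every SCI library, with a log2 fold change of -0.72 (SE 0.23, 95% interval -1.23 to -0.22, adjusted p = 0.312, edgeR), and -0.97 (adjusted p = 0.0399) without syngeneic replicate 3. Siglec1 had 8.17, 2.74 and 20.3 CPM in syngeneic libraries and overlapped the SCI libraries through replicate 3 alone. Its log2 fold change was -1.04 (SE 0.54, adjusted p = 0.411) with that library and -1.99 (adjusted p = 0.0368) without it. Siglece had 0.918, 1.43 and 2.18 CPM in syngeneic libraries, which reached from below to above the SCI range, and a log2 fold change of -0.24 (SE 0.39, 95% interval -1.09 to 0.60).

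Sirpa had 252, 176 and 334 CPM in syngeneic libraries, against 312, 352 and 298 CPM in SCI libraries, with overlap and a log2 fold change of -0.34 (SE 0.19, adjusted p = 0.454, edgeR). Relative to the pan-myeloid markers, Sirpa stood higher in syngeneic libraries (2.12 to 2.65) than in SCI libraries (1.94 to 1.98). Siglece did too (-5.30 to -4.32 against -5.49 to -5.42). Cd200r1 stood lower (-5.36 to -4.81 against -4.68 to -4.62), but overlapped with Ptprc alone as the marker. Cd33, Cd200r4, Siglec1, Slamf7 and the Lilr4b/Lilrb4a locus overlapped on this scale. Slamf7 had 1.27, 0.940 and 3.53 CPM in syngeneic libraries, against 7.72, 6.75 and 2.89 CPM in SCI libraries. Syngeneic replicate 3 lay above the lowest SCI library and the others below all of them, with a log2 fold change of -1.64 (SE 0.54, 95% interval -2.86 to -0.43, adjusted p = 0.314) and of -2.42 (adjusted p = 0.0348) without syngeneic replicate 3. The Lilr4b/Lilrb4a locus had 11.98, 7.11 and 28.4 CPM in syngeneic libraries, against 27.3 to 37.3 CPM in SCI libraries, and its log2 fold change had a 95% interval of -1.90 to -0.10 (SE 0.41, adjusted p = 0.338). It was -1.75 (adjusted p = 0.0191) without that replicate.

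The allogeneic comparison with SCI asked the same of unmatched cells. No member was called, against 0.188% of all genes tested (31 genes), and 486 genes had an unadjusted p below 0.05. Neither limma-voom nor DESeq2 called a member. The adjusted p was 0.9999 for every member, and the median log2 fold change was 0.14 against 0.00 over all genes. Cd200r1 had 1.95, 3.38 and 4.01 CPM in allogeneic libraries, against 3.12, 3.46 and 2.89 CPM in SCI libraries, with a log2 fold change of -0.02 (SE 0.43, 95% interval -0.97 to 0.93, edgeR). Cd200r4 had 4.73, 9.25 and 8.03 CPM in allogeneic libraries, against 5.88, 8.02 and 4.65 CPM in SCI libraries, and a log2 fold change of 0.24 (SE 0.54). The allogeneic libraries straddled the SCI libraries for Cd200r1, and for Cd200r4 they overlapped them and reached higher. The intervals reach beyond a log2 change of 0.9 in both directions, so these libraries do not show that the groups are alike.

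Sirpa had 331, 372 and 376 CPM in allogeneic libraries, against 312, 352 and 298 CPM in SCI libraries, with a log2 fold change of 0.16 (SE 0.19, 95% interval -0.26 to 0.59, edgeR). Siglec1 had 21.5, 31.3 and 17.3 CPM and Cd33 24.8, 35.1 and 22.3 CPM in allogeneic libraries, and both overlapped their SCI ranges of 13.5 to 30.6 and 22.1 to 26.4 CPM. Allogeneic replicate 2, the shallowest library, was the highest allogeneic library for both genes. Siglece had 1.23, 2.60 and 1.94 CPM in allogeneic libraries and 1.59 to 2.03 CPM in SCI libraries. Cd200 had 79.1, 76.3 and 93.0 CPM and Cd47 82.2, 62.7 and 62.7 CPM in allogeneic libraries, with log2 fold changes of 0.06 (95% interval -0.17 to 0.28) and -0.09 (95% interval -0.42 to 0.24). The Lilr4b/Lilrb4a locus had 25.4, 47.2 and 48.0 CPM in allogeneic libraries and a log2 fold change of 0.36 (SE 0.40).

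Slamf7 had the largest fitted value of the members in this comparison. It had 6.61, 13.9 and 8.03 CPM in allogeneic libraries, against 7.72, 6.75 and 2.89 CPM in SCI libraries, with overlap and a log2 fold change of 0.70 (SE 0.51, 95% interval -0.44 to 1.84, edgeR). T and NK cell markers were higher in the same libraries: 4 of 7 tested were called, with a median log2 fold change of 3.35. As above, most of these 7 are T cell genes, and Ncr1 was not tested. The summed level of the whole list was 40.7 to 77.7 CPM in allogeneic libraries against 6.29 to 7.97 CPM in SCI libraries. No marker of that list was at 0 in either group. Of 8 monocyte and macrophage markers none was called, with a median log2 fold change of 0.29, 5 positive fitted values and 3 negative. Of 4 tested B and plasma cell markers none was called, with log2 fold changes of -0.85 to 1.37 and a median of 0.12. The part of these lists in the Slamf7 values was not tested.

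Syngeneic and allogeneic libraries were compared directly to test the difference between donors. No member was called, against 0.611% of all genes tested (101 genes) and 0.593% called lower in syngeneic libraries (98 genes), with 2381 genes at an unadjusted p below 0.05. Of 9 members, 7 had negative fitted values, with a median log2 fold change of -0.91 against 0.02 over all genes. Only Cd33 and Slamf7 had libraries that did not overlap, both lower in syngeneic libraries, as did 7.03% of all genes. DESeq2 called both and limma-voom called Slamf7 alone. Without syngeneic replicate 3, edgeR called 6 members lower, the receptors Cd200r1, Cd200r4, Siglec1, Cd33, Sirpa and Slamf7, among 1178 genes called. As above, that library was singled out for its nearness to SCI, so these calls are no support for a difference. Without syngeneic replicate 1 no member was called.

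Slamf7 had 1.27, 0.940 and 3.53 CPM in syngeneic libraries, against 6.61, 13.9 and 8.03 CPM in allogeneic libraries. The highest syngeneic library was below the lowest allogeneic one. The log2 fold change was -2.34 (SE 0.55, 95% interval -3.57 to -1.12, adjusted p = 0.138, edgeR), and -3.13 (adjusted p = 0.0113) without syngeneic replicate 3. DESeq2 gave -2.34 with an adjusted p of 0.0019 and limma-voom -2.49 with an adjusted p of 0.0394. Relative to the pan-myeloid markers Slamf7 was also lower in syngeneic libraries, at -4.87 to -4.40 against -3.64 to -2.96 in allogeneic libraries. The summed level of the T and NK cell markers was 3.84 to 5.52 CPM in syngeneic libraries against 40.7 to 77.7 CPM in allogeneic libraries, with 6 of 7 called lower. All 8 monocyte and macrophage markers had negative fitted values (median log2 fold change -1.37), and 1 was called lower. Of 4 tested B and plasma cell markers none was called, with log2 fold changes of -2.29 to 0.08 and a median of -0.76. The part of these lists in the Slamf7 difference was not tested.

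Cd33 had 15.5, 9.56 and 18.6 CPM in syngeneic libraries, against 24.8, 35.1 and 22.3 CPM in allogeneic libraries, with a log2 fold change of -0.91 (SE 0.23, 95% interval -1.42 to -0.41, adjusted p = 0.142, edgeR). It was -1.17 (adjusted p = 0.0153) without syngeneic replicate 3. Relative to the pan-myeloid markers Cd33 overlapped between the groups, at -2.05 to -1.37 in syngeneic libraries and -2.18 to -1.63 in allogeneic libraries. The other receptors overlapped in CPM through syngeneic replicate 3, with log2 fold changes of -1.18 (SE 0.46) for Cd200r1, -1.21 (SE 0.55) for Cd200r4, -1.18 (SE 0.55) for Siglec1 and -0.50 (SE 0.19) for Sirpa, at adjusted p of 0.284 to 0.352. Siglece, Cd200 and Cd47 had log2 fold changes of -0.34, 0.13 and 0.06. The Lilr4b/Lilrb4a locus had a log2 fold change of -1.36 (SE 0.41, adjusted p = 0.223), and -2.12 (adjusted p = 0.0058) without syngeneic replicate 3. Relative to the pan-myeloid markers, Sirpa and Siglece stood higher in syngeneic libraries without overlap, by 0.51 and 0.71. Cd200r1, Cd200r4, Siglec1 and the locus overlapped on that scale.

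Both transplanted groups were also set against non-injured cord. The 6 members called in SCI were each called higher in the syngeneic group, against 4.92% of all genes, and in the allogeneic group, against 16.7% of all genes. In syngeneic over non-injured cord the log2 fold change was 2.63 (SE 0.59, adjusted p = 0.0238) for Cd200r1, 5.66 (SE 0.84, adjusted p = 0.0031) for Siglec1, 2.11 (SE 0.25, adjusted p = 0.0014) for Cd33 and 0.96 (SE 0.20, adjusted p = 0.0153) for Sirpa, by edgeR. Cd200r4 had 174 counts in syngeneic libraries against 1 count in non-injured libraries, a ratio of 170 (95% counting interval 30.1 to 6742). Slamf7 was 34.8-fold higher against the floor of 3 counts, with a lower 95% counting limit of 27.8. Fitted on the syngeneic and non-injured groups alone, only Siglec1 and Cd33 were called. Over 13 alternative settings, Cd33 was called in all 13 and Siglec1 in 12. The calls of Cd200r1 and Sirpa were lost when syngeneic replicate 3 was left out, with log2 fold changes of 1.87 (adjusted p = 0.0776) and 0.67 (adjusted p = 0.0750). They were also lost without non-injured replicate 1 (2.25, adjusted p = 0.124, and 0.99, adjusted p = 0.0601) and without non-injured replicate 3 (2.55, adjusted p = 0.0741, and 0.82, adjusted p = 0.0614).

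In allogeneic over non-injured cord the log2 fold change was 3.80 (SE 0.57, adjusted p = 0.0007) for Cd200r1, 6.84 (SE 0.83, adjusted p = 0.0002) for Siglec1, 3.02 (SE 0.25, adjusted p = 0.0001) for Cd33 and 1.46 (SE 0.20, adjusted p = 0.0004) for Sirpa, by edgeR. Cd200r4 had 329 counts against 1 count, a ratio of 439 (78.3 to 17407). Slamf7 was 178-fold higher against the floor of 3 counts, with a lower 95% counting limit of 144. Siglece overlapped, with a log2 fold change of 1.19 (SE 0.41, adjusted p = 0.0556). Only 5 of 13 alternative settings called Siglece, among them those without allogeneic replicate 1 (1.43, adjusted p = 0.0302) and without non-injured replicate 3 (1.65, adjusted p = 0.0202). Over all 13 its log2 fold change ranged from 0.96 to 1.65, with adjusted p of 0.0177 to 0.174. Cd200 and Cd47 overlapped non-injured cord in both transplanted groups, with log2 fold changes of -0.0014 to 0.13.

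Most relatives of the members also rose in injury. Of 15 tested relatives from the same receptor families, 14 rose in SCI and 1 fell, with a median log2 fold change of 3.55. Over all genes tested, 16.6% were called higher and 9.26% lower, and these shares also apply to the lists that follow. They included Siglecf (3.19, SE 0.29), an eosinophil and microglial Siglec, and Slamf6 (3.40, SE 0.32) and Cd84 (4.09, SE 0.44), both SLAM receptors that bind themselves. The gene that fell was Mag (-0.68, adjusted p = 0.0384), a Siglec of myelin made by oligodendrocytes. It is also on the list of 6 oligodendrocyte markers, of which 4 were called lower in SCI. In syngeneic over SCI none of the 15 was called, 14 had negative fitted values and the median was -0.84. In allogeneic over SCI none was called and the median was 0.15, and in syngeneic over allogeneic none was called and the median was -1.06.

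All 15 tested genes of a list of other inhibitory receptors of myeloid cells and their paired relatives rose in SCI, with a median log2 fold change of 4.05. The list is mixed: Trem2, Cd300lb, Cd300ld and Cd300c2, for example, encode receptors that signal through activating adaptors. The 15 included Milr1 (4.05, SE 0.37), an inhibitory receptor first described on mast cells, Treml2 (4.66, SE 0.45) and Cd300lf (4.72, SE 0.50), a lipid-binding inhibitory receptor. None of the 15 was called among the injured groups, where the medians were -0.80 in syngeneic over SCI, 0.25 in allogeneic over SCI and -1.08 in syngeneic over allogeneic. All 3 activating adaptors rose: Tyrobp (3.68, SE 0.46), the partner of many paired receptors, Fcer1g (3.12, SE 0.42) and Hcst (3.93, SE 0.76). No adaptor was called among the injured groups.

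Inhibitory signalling genes split into those that rose and those that did not pass the test. Of 13 tested, 9 rose in SCI and none fell, with a median log2 fold change of 2.48. Fgr (3.98, SE 0.39) and Lyn (2.48, SE 0.28), Src-family kinases that phosphorylate the tyrosine motifs, were among them. The phosphatase gene Ptpn6, expressed mainly in blood cells, rose as well (2.91), whereas the widely expressed Ptpn11 (0.21, adjusted p = 0.153) and the kinase gene Csk (-0.06, adjusted p = 0.781) did not pass the test. These 3 genes were chosen after their values were seen. Sialic acid genes, which make the Siglec ligands, showed no shared direction: of 19 tested, 3 rose and 4 fell, with a median of -0.09. The part that rose was near the 16.6% of all genes called higher, and 9.26% of all genes were called lower. The sialyltransferase gene St8sia2 rose (1.15, SE 0.22), while Cmas, which activates sialic acid (-0.63, SE 0.13), and the ganglioside enzyme gene St3gal5 (-0.43, SE 0.10) fell. No gene of either list was called among the injured groups.

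Likeness of pattern was measured over the 12 libraries as the root-mean-square difference of log2 CPM after centring each gene on its mean. Nearest to Siglec1 were Cybb, an oxidase subunit of phagocytes, at 0.28 and the Siglec gene Cd22 at 0.31, and nearest to Cd33 was the integrin gene Itgam at 0.17. Nearest to Sirpa were Srebf1 (0.09), a regulator of lipid synthesis, and the lysosomal enzyme gene Glb1 (0.10). Cd200 was most like Gtdc1 (0.06) and Cspg5 (0.06), and Cd47 most like Xpo7 (0.03) and Trim44 (0.04). Siglece was near Tcea3 (0.19). For Cd200r1, Cd200r4 and Slamf7 the nearest genes changed with the prior count of the log scale.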

How the data were processed

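The authors deposited raw read counts per Ensembl gene for 12 libraries in 1 table, and these whole-number counts were used as deposited. Per the labels' protocols, poly(A) RNA was sequenced with a stranded kit. Per the submitters' processing notes, the build was GRCm38 and the tools, listed without roles, were featureCounts 1.5.1, STAR 2.5.1, StringTie 1.3.3, Trim Galore 0.4.1, FastQC 0.11.5 and Picard. No source used here states the annotation release, the strand setting or how multi-mapping reads were treated, so genes with paralogs or antisense partners are less certain.

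From the counts, genes were kept with filterByExpr (minimum count 10, minimum total 15), scaled by TMM and tested with edgeR 4.0.16 in R 4.3.3 (robust quasi-likelihood, all 12 libraries, 1 mean per group, 8 residual degrees of freedom), with p-values adjusted by the Benjamini-Hochberg method over 16527 genes in each of 6 comparisons. Log2 CPM used a prior count of 2. Intervals of ratios are exact 95% counting intervals, and a group at 0 was given a floor of 3 counts over the group. Both cover counting error only. Alternatives were other scalings, no filter, fits of only the groups compared, limma 3.58.1 (voom), DESeq2 1.42.0 and leaving out libraries. The script was tested on simulated data. The members and lists were chosen with earlier results of these data known. Named genes are all members, the 3 smallest p of each other list among those called in SCI over non-injured cord, and the nearest genes by pattern, of which those kept under both prior counts are printed. A gene that this rule named is not reported here. Amino acid sequences are not used here.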

Additional observations from a re-analysis of the deposited data

Results flagged for a closer look

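Slamf7 stood out because its transplanted libraries lay on opposite sides of the SCI mean of log2 CPM. All 3 syngeneic libraries were below that mean and all 3 allogeneic libraries above it. Each transplanted group still overlapped the SCI libraries, of which replicate 3 (1.58) lay well below the others (2.97 and 2.78). How many of all genes show such a pattern was not counted. The fitted difference between syngeneic and allogeneic libraries was -2.34 on the log2 scale (adjusted p = 0.138, edgeR), which did not pass the threshold. DESeq2 and limma-voom gave adjusted p of 0.0019 and 0.0394. The deposited counts behind it are 107 in syngeneic and 399 in allogeneic libraries.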

How the results depend on the processing

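No paired analysis was possible because the replicate numbers were given in accession order and pair no samples. The calls of Cd200r1, Cd200r4, Siglec1, Cd33, Sirpa and Slamf7 in SCI and in allogeneic over non-injured cord held under every alternative run. Low counts limit Siglece (50 counts in non-injured cord) and Slamf7, and 3 libraries a group limit the comparisons among injured groups.

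Member calls depended on the setting as follows, and the cause was not tested. Fitted on the groups compared, 2 members were called in syngeneic over non-injured cord. In syngeneic over allogeneic libraries, limma-voom called 1 member, DESeq2 called 2, and 6 were called with syngeneic replicate 3 and allogeneic replicate 1 both left out, when 5 were called in syngeneic over SCI. Both libraries were singled out for their nearness to SCI, so calls without them are no support for a difference. Leaving out 1 library gave 0 to 5 members in syngeneic over SCI, 0 to 6 in syngeneic over allogeneic and 4 to 6 in syngeneic over non-injured cord.

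Counts of all genes called moved too. Leaving out 1 library gave 2336 to 3974 (SCI over non-injured), 358 to 1752 (syngeneic over non-injured), 2613 to 4669 (allogeneic over non-injured), 0 to 866 (syngeneic over SCI), 0 to 29 (allogeneic over SCI) and 24 to 1178 (syngeneic over allogeneic). Fits of only the groups compared gave 172 (syngeneic over non-injured), 2738 (allogeneic over non-injured), 3, 17 and 21 (syngeneic over SCI, allogeneic over SCI, syngeneic over allogeneic). In the same order of these last 3 comparisons DESeq2 gave 121, 71 and 358, and 1409 in syngeneic over non-injured cord. With no filter there were 18 in syngeneic over SCI and 50 in allogeneic over SCI, and limma-voom gave 10 in syngeneic over SCI. With both transplanted libraries left out the counts were 539 (syngeneic over non-injured), 1289 (syngeneic over SCI) and 2217 (syngeneic over allogeneic). A prior count of 0.5 kept 10 of 20 nearest-gene names.

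Some uncalled fold changes near 0 changed sign. With library totals only, Cd200 was at 0.00071 in SCI and 0.062 in allogeneic over non-injured cord; in allogeneic over non-injured cord it was at 0.0087 fitted on the groups alone, 0.057 without both transplanted libraries and -0.086 to 0.056 without single libraries. Cd47 in that comparison was at -0.052 and at -0.076 to 0.14. Without single libraries, Cd47 ranged over -0.011 to 0.25 in syngeneic over non-injured cord, -0.16 to 0.093 in syngeneic over SCI and -0.070 to 0.20 in syngeneic over allogeneic. Siglece ranged over -0.61 to 0.022 in syngeneic over SCI. In allogeneic over SCI the ranges were -0.27 to 0.24 for Cd200r1 (0.26 without both transplanted libraries), -0.12 to 0.51 for Siglec1, -0.13 to 0.34 for Siglece, -0.022 to 0.33 for Cd33 and -0.032 to 0.11 for Cd200.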

Other observations

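The marker lists other than the pan-myeloid, neuron and T and NK cell lists had these values in SCI over non-injured cord, by edgeR. All 8 homeostatic microglia markers were called higher (median log2 fold change 1.68), as were all 8 monocyte and macrophage markers (2.95), 5 of 7 neutrophil markers (1.61) and 5 of 6 astrocyte markers (0.64). Of 4 tested B and plasma cell markers none was called (0.69), and 1 of 3 tested dendritic cell markers was called higher and 1 lower. The dendritic cell marker called higher is also on the homeostatic microglia list and among the relatives of the members. None of 6 endothelial markers was called (-0.03), and 4 of 6 oligodendrocyte markers were called lower (-0.85). Over all genes tested, 16.6% were called higher and 9.26% lower in that comparison, and 0.593% lower in syngeneic over allogeneic libraries. In syngeneic over allogeneic libraries, 1 of 8 monocyte and macrophage markers was called lower (median -1.37), and none of the microglia, neutrophil, B and plasma cell, dendritic, endothelial, oligodendrocyte or astrocyte markers was called.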
